A study of Mus musculus with 6 samples.

Results

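Small nucleolar RNAs (snoRNAs) are short noncoding RNAs that guide chemical modification of ribosomal RNA, and 51 of them were followed here in blood progenitor cells with and without the transcription factor gene Cebpa. Members were the rows of the deposited table that the platform's annotation assigns to exactly 1 gene whose symbol starts with Snora or Snord and a digit. That gave 56 rows of 51 genes, among 19938 genes tested, and the row with the highest mean over the 6 arrays was kept for each of the 5 genes with several rows. Of the 51, 20 were H/ACA snoRNAs (Snora) and 31 were C/D box snoRNAs (Snord). RefSeq lists 50 of these genes as snoRNA and Snord73b as snRNA. Another 41 rows that name a snoRNA together with other genes were not members.

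The cells were LSK CD150- cells, a bone marrow fraction without mature lineage markers that carries Sca-1 and Kit and holds multipotent progenitors. Both genotypes were homozygous for a floxed Cebpa allele, and both received pIpC, a double-stranded RNA that induces interferon. The 3 control mice (Cebpafl/fl) lacked Cre. The 3 deleted mice (Cebpafl/fl;Mx1Cre) also carried Mx1Cre, a Cre transgene under the interferon-responsive Mx1 promoter, which is active in many tissues, so the deletion was not limited to blood cells. Cells were taken at day 18 after injection, the ages of the mice are not given in the labels, and each mouse was hybridised to its own Affymetrix Mouse Gene 1.0 ST array. The presence of Cre and the loss of Cebpa cannot be told apart in this design. All levels below are deposited log2 values, and all changes are log2 values of deleted minus control from limma, with standard errors (SE), p-values adjusted over all 19938 genes and a threshold of 0.05.

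H/ACA snoRNAs direct pseudouridylation together with the enzyme dyskerin, and C/D box snoRNAs direct ribose methylation together with fibrillarin. A few members of both classes act in the cleavage of the ribosomal RNA precursor. In mice most snoRNAs lie in introns of other genes, many of them genes of the translation machinery, and are released from the spliced intron by debranching and trimming. An array row for a snoRNA can therefore also read the unspliced host transcript or the excised intron, and the parts of mature and precursor RNA in each value cannot be told apart. Silica columns such as those of the RNeasy Micro kit named in the labels also retain short RNAs poorly.

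The sequences of the 51 snoRNAs were not used here, and their setting is shown instead by their host genes. By gene spans in RefSeq (assembly GRCm38.p6), 50 of the 51 lay inside another gene, and Snord118 did not. Strand was not considered, so a gene called a host here may lie on the opposite strand. Predicted genes were kept as hosts only where no other gene held the snoRNA. Hosts were ribosomal protein genes for 8 of the 20 H/ACA and 13 of the 31 C/D rows. Genes of ribosomal proteins and many snoRNA hosts are known to start their transcripts with a C followed by a run of pyrimidines (the terminal oligopyrimidine tract), which couples their translation to growth signals. Of 31 hosts with a start in the RefSeq promoter table, 6 (19.4%) had a C at the annotated start followed by at least 4 pyrimidines on the transcribed strand, against 813 of all 27025 genes in that table (3.01%). The windows of these 6 hosts follow, each with 20 bases before the start and 10 bases from the start on, and with the tract in capitals. They are shown because they are the hosts that carry this tract at the annotated start. A tract that begins at a base beside the annotated start was not counted, so hosts not shown may still have one. Rplp2 is the only ribosomal protein gene among these 6.
Gas5, host of Snord47, chr1:161035146-161035175, plus strand: gactcagccgccatctcagcCTTTCggagc
Ipo7, host of Snora23, chr7:110018295-110018324, plus strand: gggccttggcgcttctctttCCTTTCgcgc
Rplp2, host of Snora52, chr7:141447631-141447660, plus strand: cccactgcgtcagcgtcttcCTTTCgccgc
Rack1, host of Snord95 and Snord96a, chr11:48800340-48800369, plus strand: tccggcggaggccgctctttCTTTTTCTCC
Gm36220, host of Snord104, chr11:106500895-106500924, plus strand: ggccacacgtccattccggcCTCTTatcga
1110038B12Rik, host of Snord52, chr17:34952459-34952488, minus strand: gaggcgggcggcacacgggtCTCTTTgtgc

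One stretch inside a member was given by RefSeq under another name. The mature microRNA mmu-miR-5121 (chr7:45126925-45126945, minus strand) lies within Snord33, at one end of its span. Its 21 bases hold the letters UGAUGA, shown in capitals, which form the core of the C box that gives C/D snoRNAs their name. On the printed strand these letters are in 12 of 1738 mature microRNAs of the table (0.690%).
mmu-miR-5121: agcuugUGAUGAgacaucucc

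Before the snoRNAs, the labels were checked. Cebpa read 7.84, 7.85 and 7.73 in control a, b and c and 6.37, 5.82 and 6.09 in deleted a, b and c, a change of -1.71 ± 0.14 (SE, n = 3 per genotype, limma adjusted p = 0.000883, exact two-sided permutation p = 0.1, the smallest that 3 against 3 allows). The mice are labelled female, but Kdm5d and Eif2s3y, both on the Y chromosome, read 8.04 to 8.49 over the 6 arrays and Xist read 4.46 to 5.13, so the values of both genotypes go against the sex label. Of the LSK markers fixed for the check, Kit, Cd34, Flt3 and Cd48 had a row of 1 gene and Ly6a (Sca-1) did not, and the mean level of these 4 ran from 10.3 to 10.4 in controls and from 10.1 to 10.2 in deleted samples. Kit (-0.75) and Flt3 (-0.71) fell and Cd48 rose by 1.00. Slamf1, the CD150 gene that the sort selected against, had mean levels of 3.72 in controls and 4.25 in deleted mice. Of 20 markers of other blood cell types 15 were measured, and 1 of them, the neutrophil gene Camp, changed (-0.97). The 6 neutrophil markers had mean levels of 6.57 to 6.69 in controls and 6.16 to 6.26 in deleted samples, and their part in the snoRNA values was not tested. In these sorted bulk samples fewer cells of a type and less RNA per cell cannot be told apart.

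Most snoRNA rows read lower in the deleted mice. Of the 51 rows, 41 had a change below 0, with a median of -0.36 and quartiles of -0.73 and -0.05, whereas 43.5% of all genes tested were below 0 and their median was 0.03. After adjustment over all genes 3 rows fell (Snora3, Snora69 and Snora44) and none rose, and none of these calls held when all 35556 deposited rows were tested. Over all genes tested 1.43% passed, 0.732% lower and 0.702% higher. At an unadjusted p under 0.05, 21 rows were lower (6.77% of all genes) and 1 was higher (9.10% of all genes). The 3 deleted mice lay wholly below the 3 controls in 15 rows (8.68% of all genes) and wholly above in 1 row, Snord55 (12.5% of all genes). A change of -0.5 or lower was reached by 21 rows, and 2.28% of all genes reached it. A change of 0.5 or higher was reached by 3 rows, and 2.24% of all genes reached it. These shares are not matched for spread within genotypes, which was larger in snoRNA rows. A larger spread alone puts more rows past a fixed size in both directions.

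The snoRNA rows also varied more between mice of 1 genotype than other genes. Their median within-genotype standard deviation was 0.44, against 0.15 for all genes and 0.10 for the 25 measured host genes. In limma the variance of each row is drawn towards a value common to all genes. For a row of larger spread the errors, intervals and p-values are therefore smaller than its own values alone would give. This holds for snoRNA rows throughout, and for their shares at an unadjusted p under 0.05. The number of calls depended on single arrays. Only Snora3 passed when control a or control b was dropped, 2 rows passed on dropping control c, deleted b or deleted c, and 4 on dropping deleted a. Over all genes the 286 calls fell to 126 on dropping control a and to 53 on dropping control b. They fell to 145, 84 and 143 when deleted mouse a, b or c was dropped. The count of rows below 0 was 36 to 40 when any single array was left out, and 40 to 43 under quantile, median or cyclic loess scaling.

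**Figure D1:**
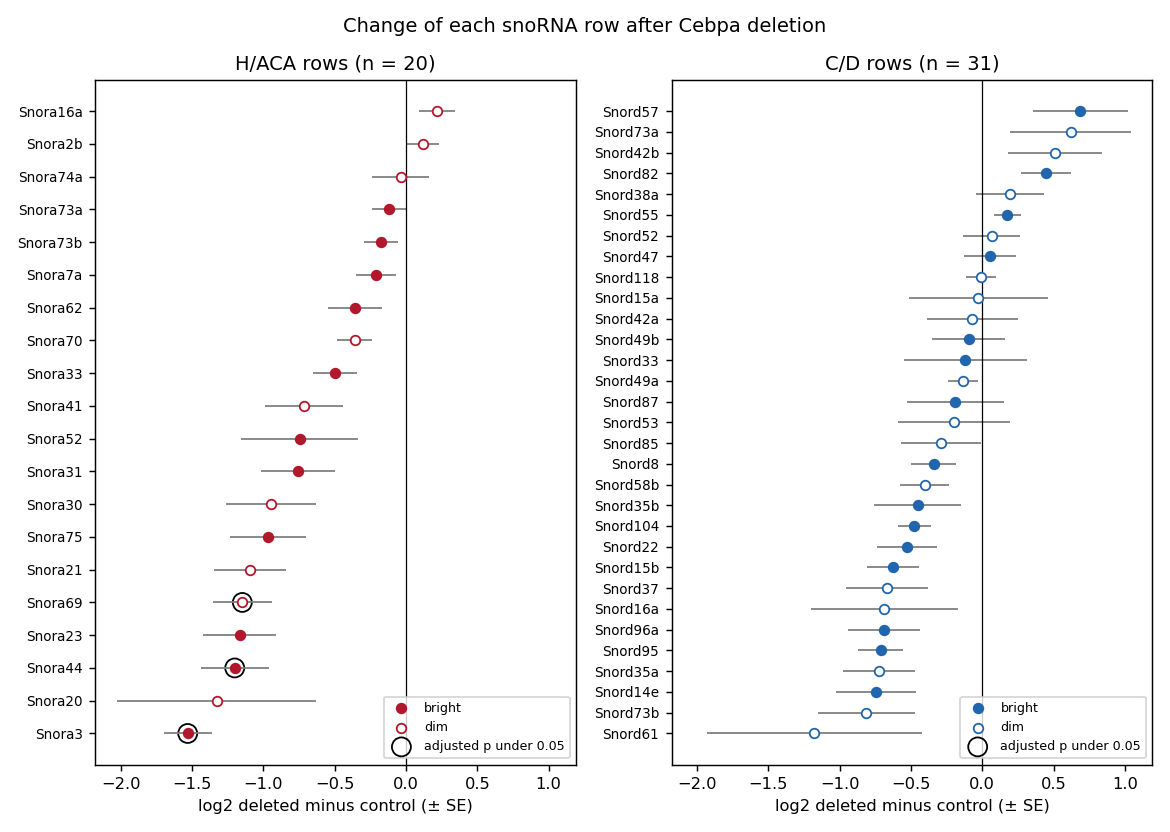
Each point is a snoRNA row, with its log2 change (deleted minus control) on the horizontal axis and its SE as a bar, H/ACA rows on the left and C/D rows on the right. Filled points are bright rows and open points dim rows, and rings mark an adjusted p under 0.05. Of 20 H/ACA rows 18 lie below 0, and of 31 C/D rows 23.

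The H/ACA rows had the lower median. Among 20 H/ACA rows 18 were below 0, with a median of -0.73 and a range of -1.53 to 0.22, and the 3 rows that fell all belonged to this class. Among 31 C/D rows 23 were below 0, with a median of -0.20 and a range of -1.18 to 0.69, and none passed. At an unadjusted p under 0.05, 11 of 20 H/ACA rows and 10 of 31 C/D rows were lower (6.77% of all genes). No H/ACA row and 1 C/D row was higher (9.10% of all genes). The genotypes did not overlap, with the deleted mice lower, in 8 of 20 H/ACA and 7 of 31 C/D rows (8.68% of all genes). The classes also differ in length, with 61 to 205 bases in RefSeq (median 125) for H/ACA and 45 to 148 bases (median 68) for C/D, and the part of length in the difference between classes was not tested. Across members, which are not independent and share hosts and arrays, Spearman's rho between length and change was 0.43 over the 20 H/ACA rows and -0.28 over the 31 C/D rows.

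The deviation of each class on each array gives the spread behind these medians. For every row the mean over the 6 arrays was subtracted, and the median was taken over the rows of a class. H/ACA rows deviated by 0.20, 0.23 and 0.33 in control a, b and c and by -0.26, -0.27 and -0.34 in deleted a, b and c. All 3 controls thus lay well above all 3 deleted mice. C/D rows deviated by -0.02, 0.22 and -0.02 in control a, b and c and by -0.10, -0.05 and -0.29 in deleted a, b and c. Here too all 3 deleted mice lay below all 3 controls, but only narrowly. The nearest were control c (-0.019) and deleted b (-0.050), where these medians had a within-genotype standard deviation of 0.133. Control b stood high and deleted c low, and the other 4 arrays were close to each other. All genes together deviated by -0.03 to 0.02 over the 6 arrays. Without control a, b or c the H/ACA median was -0.70, -0.60 or -0.67, and the C/D median was -0.36, -0.15 or -0.28. Without deleted a, b or c the H/ACA median was -0.58, -0.71 or -0.40, and the C/D median was -0.31, -0.33 or -0.25. The medians of the classes were thus closest without deleted c. The difference between the classes was described and not tested.

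**Figure D2:**
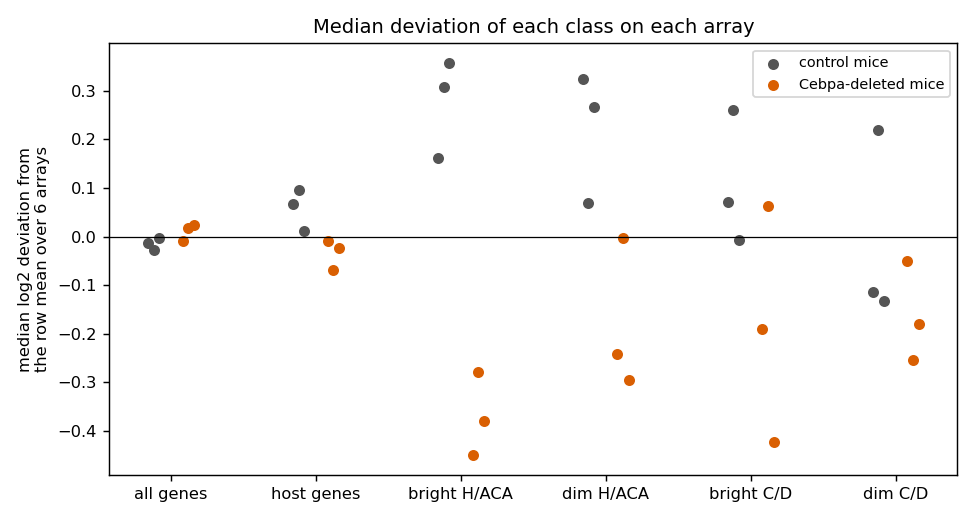
Each point is 1 mouse, and the vertical axis is the median, over the rows of a class, of the log2 deviation from the row's mean over 6 arrays. Bright H/ACA rows separate the genotypes on all 6 arrays, with controls at 0.16 to 0.36 and deleted mice at -0.45 to -0.28, whereas bright C/D rows overlap, with deleted b at 0.06 above control c at -0.01.

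Rows were called bright when their mean over the 6 arrays was at or above 6.42, the median over all genes tested, and dim below it. Intensity also depends on the probes, so brightness orders rows and not the abundance of different snoRNAs. Of the 51 rows 26 were bright and 25 dim. The nearest to the boundary were Snora21 (6.25) and Snora30 (6.42, just under it) on the dim side and Snord33 (6.59) and Snord96a (6.59) on the bright side. Bright rows had a median change of -0.47 with 22 of 26 below 0, and dim rows had a median of -0.29 with 19 of 25 below 0. For all genes 49.0% of bright and 37.9% of dim ones were below 0. Without control b the median of dim rows was -0.13. H/ACA rows had the lower median on both sides of the boundary. All 11 bright H/ACA rows were below 0 (median -0.75), as were 7 of 9 dim ones (median -0.72), 11 of 15 bright C/D rows (median -0.34) and 12 of 16 dim ones (median -0.17). Of these 4 sets the dim C/D rows varied most between mice, with a median within-genotype standard deviation of 0.55, against 0.31 for bright H/ACA rows. Neither bright nor dim C/D rows alone separated the genotypes by their median deviation on each array. In dim C/D rows deleted a (-0.05) lay above control a (-0.11) and control c (-0.13).

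**Figure D3:**
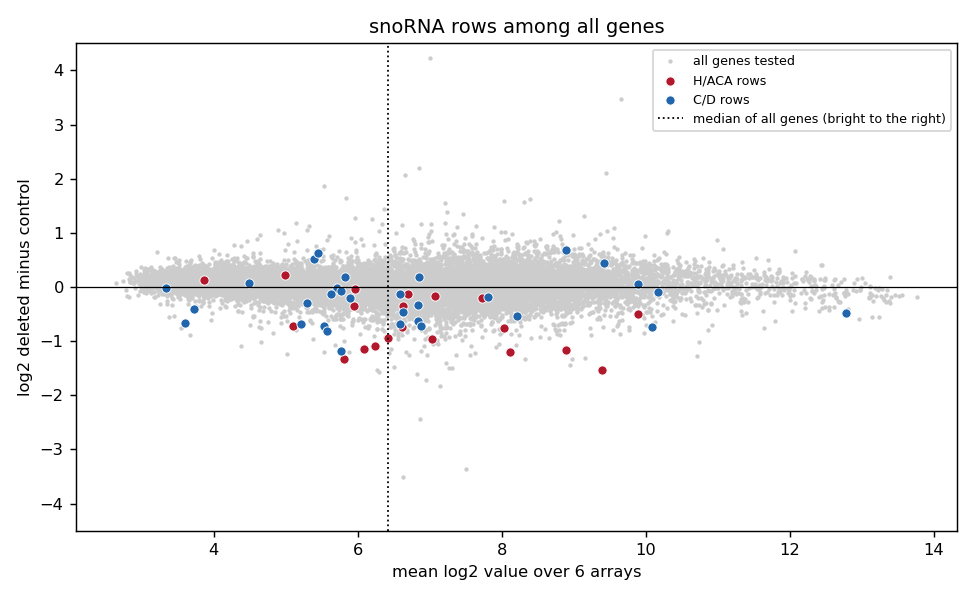
The horizontal axis is the mean log2 value over 6 arrays and the vertical axis the log2 change, for all 19938 genes (grey), H/ACA rows (red) and C/D rows (blue). The dotted line marks 6.42, above which rows were called bright. The 3 brightest H/ACA rows, Snora33, Snora3 and Snora23, lie below 0.

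Snora3, which lies in the gene of the ribosomal protein Rpl27a on chromosome 7, fell the most clearly. It read 10.24, 9.86 and 10.38 in control a, b and c and 8.90, 8.37 and 8.63 in deleted a, b and c. Every deleted mouse lay below every control. The standard deviation was 0.27 in controls and 0.26 in deleted mice. The median within genotypes was 0.15 for all genes and 0.44 for snoRNA rows. The change was -1.53 ± 0.17 (SE), a 2.89-fold fall (95% interval 2.22 to 3.75), with a limma adjusted p of 0.00505. It passed under 16 of 17 alternatives run for it, with changes of -1.68 to -1.40. Its adjusted p ran from 0.00350 to 0.0783, and the call was lost when every deposited row was tested (0.0783). A further row of Snora3 gave -1.53 and differed little from this one on any array, so it is not independent support.

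Snora69, in the X-linked ribosomal protein gene Rpl39, read 6.54, 6.67 and 6.79 in control a, b and c and 4.98, 5.69 and 5.88 in deleted a, b and c. The deleted mice were all lower, with deleted a lowest, and lay below the median of all genes, 6.42. The change was -1.15 ± 0.21 (SE), a 2.22-fold fall (95% interval 1.61 to 3.06, limma adjusted p = 0.0330). Its call was lost with every deposited row tested (adjusted p = 0.167) and without control a (adjusted p = 0.0724), control b (0.107), control c (0.0782) or deleted b (0.0840).

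Snora44 lies in the noncoding host gene Snhg12 on chromosome 4. It read 9.06, 9.05 and 8.05 in control a, b and c and 7.48, 7.52 and 7.55 in deleted a, b and c. The deleted mice were almost equal, and control c stood apart from the other controls towards them. The change was -1.20 ± 0.24 (SE), a 2.30-fold fall (95% interval 1.59 to 3.33, limma adjusted p = 0.0440). Leaving out any array other than control c ended the call. Its adjusted p was 0.124 on dropping control a and 0.145 on dropping control b, and it was 0.111, 0.134 and 0.112 when deleted mouse a, b or c was dropped. Without control c the change was -1.54. Quantile normalization (0.0516), median centring (0.0507) and array weights (0.0584) also put its adjusted p above 0.05, as did testing every deposited row (0.182).

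Several other H/ACA rows had changes of like size but did not pass. Snora23, in the gene of the nuclear import receptor Ipo7, read 9.13, 10.02 and 9.24 in control a, b and c and 8.31, 8.71 and 7.89 in deleted a, b and c. The groups did not overlap, and the change of -1.17 ± 0.26 (SE) had a limma adjusted p of 0.0632. It passed among genes at or above the median intensity. Snora21, in the ribosomal protein gene Rpl23, read 6.98, 6.72 and 6.68 in controls against 5.80, 6.24 and 5.06 in deleted mice, a change of -1.09 ± 0.25 (SE, limma adjusted p = 0.0690). Without deleted b it passed. Snora33, in the ribosomal protein gene Rps12, had the highest mean intensity of the class and a change of -0.50 ± 0.16 (SE, limma adjusted p = 0.162), with controls at 9.89 to 10.48 and deleted mice at 9.52 to 9.79, or -0.33 without control c. Snora20 had the second lowest change, -1.33 ± 0.70 (SE), but its deleted mice ran from 3.93 to 6.92 and overlapped the controls (5.81 to 7.58). Its change was -2.22 without deleted a and -0.72 without deleted b. The only H/ACA rows above 0 were dim, Snora16a (0.22 ± 0.13 SE, limma adjusted p = 0.462) and Snora2b (0.12 ± 0.11 SE, limma adjusted p = 0.658).

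**Figure D4:**
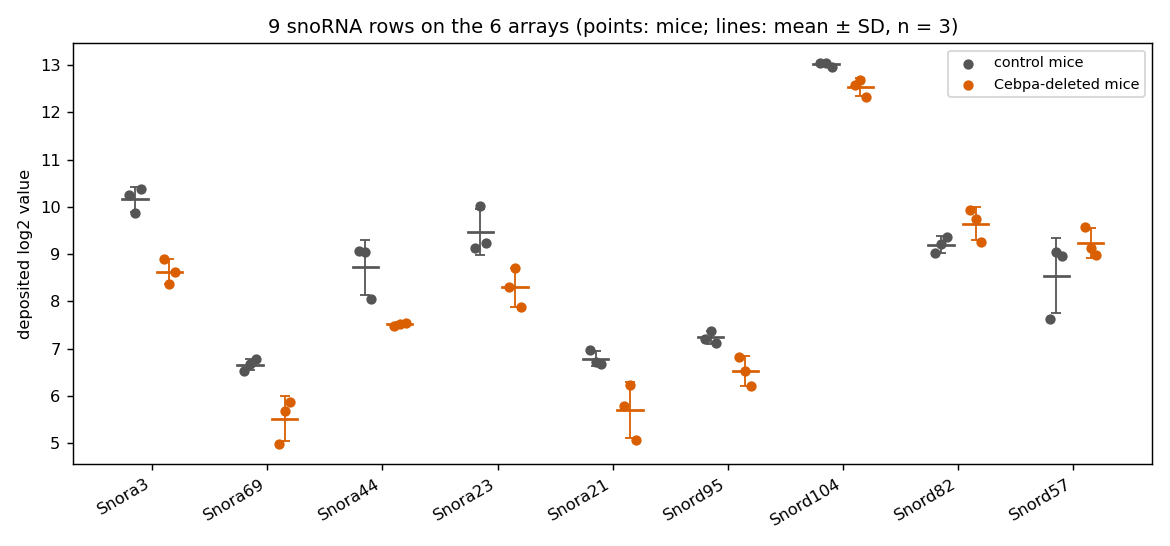
Deposited log2 values of 9 rows in the 3 control and 3 deleted mice (points), with mean and standard deviation as lines. In the 7 rows on the left, from Snora3 to Snord104, every deleted mouse lies below every control, and in Snord82 and Snord57 the genotypes overlap.

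Among C/D rows Snord95, in the gene of the ribosomal scaffold protein Rack1, had the smallest p in the downward direction. It read 7.21, 7.38 and 7.13 in control a, b and c and 6.83, 6.54 and 6.21 in deleted a, b and c. The groups did not overlap, and the change was -0.71 ± 0.16 (SE, limma adjusted p = 0.0636). It passed among genes at or above the median intensity and without deleted a. Snord104 was the brightest row of all 51. Its controls were tight at 13.04, 13.04 and 12.97 in control a, b and c, and its deleted mice read 12.59, 12.69 and 12.34. The change was -0.48 ± 0.12 (SE, 1.39-fold, limma adjusted p = 0.0836), and it passed with an intensity trend in the prior (0.0270). Snord15b (-0.62 ± 0.18 SE, limma adjusted p = 0.133) and Snord35a (-0.72 ± 0.25 SE, limma adjusted p = 0.204) did not overlap between genotypes either, and Snord35a was at -0.45 without deleted b. The intense rows Snord47 (0.06 ± 0.18 SE) and Snord49b (-0.10 ± 0.26 SE) had changes smaller than their errors, with signs that flipped when deleted a was left out. The sign of Snord49b also flipped without control a or deleted c, and that of Snord47 under quantile and cyclic loess scaling.

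The 4 upward C/D rows with the smallest p did not pass. Snord82, in the gene of nucleolin (Ncl), read 9.02, 9.21 and 9.37 in control a, b and c and 9.93, 9.75 and 9.26 in deleted a, b and c. Deleted c lay among the controls, and the change was 0.45 ± 0.17 (SE, limma adjusted p = 0.244). Snord57, in the gene of the C/D core protein Nop56, had a change of 0.69 ± 0.33 (SE, limma adjusted p = 0.359), with control a (7.63) far below control b and c (9.04 and 8.96) and deleted mice at 8.98 to 9.58. Without control a it was at 0.23. Snord55 differed little but tightly, with controls at 6.73 to 6.81 and deleted mice at 6.91 to 6.97 (0.18 ± 0.09 SE, limma adjusted p = 0.413). Snord42b was at 0.51 ± 0.33 (SE, limma adjusted p = 0.508), with deleted c at 6.55 and the other 5 arrays at 4.90 to 5.50. Without deleted c it was at 0.06.

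Members that act in precursor cleavage were 5 of the 14 listed. Snord14e (U14) and Snord22 (U22), which serve the small ribosomal subunit, had changes of -0.74 ± 0.28 (SE, limma adjusted p = 0.231) and -0.53 ± 0.21 (SE, limma adjusted p = 0.259). Snord14e read 10.25, 11.07 and 10.03 in control a, b and c and 9.48, 10.22 and 9.42 in deleted a, b and c, so deleted b lay among the controls. Snord22 read 8.29, 9.03 and 8.11 in control a, b and c and 7.996, 8.05 and 7.78 in deleted a, b and c, without overlap. Control b read highest in both, and without it the changes were -0.43 for Snord14e and -0.25 for Snord22. Snora73a and Snora73b (U17), which also serve the small subunit, had changes of -0.12 ± 0.12 (SE) and -0.17 ± 0.12 (SE), or -0.01 and -0.09 without deleted b. Snord118 (U8), needed for the large subunit, read 3.22 to 3.46 on all 6 arrays, near the lowest values of the table. None of the 5 passed, and all 5 were below 0, though Snord118 (-0.01) was not under median centring or without control b or deleted a.

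The host genes had a median change nearer to 0 than the snoRNAs they hold. A row naming 1 gene was measured for 28 snoRNAs in 24 hosts, leaving aside Mcmdc2, which overlaps Snord87 together with Snhg6. None of the 24 hosts passed (1.43% of all genes), their median change was -0.12, and they ranged from -0.45 to 0.41. The hosts also leaned lower, and with Mcmdc2 counted 19 of 25 were below 0 (43.5% of all genes). At an unadjusted limma p under 0.05, 6 of the 25 were lower (6.77% of all genes) and 2 higher (9.10%). The deleted mice lay wholly below the controls in 11 of the 25 (8.68% of all genes) and wholly above in 4 (12.5%). The median of the 28 snoRNA rows was -0.65, and 21 of them had a lower change than their host, 12 of 13 H/ACA and 9 of 15 C/D rows. In some pairs the host had the larger change, as with Rpl10 (-0.45) and its Snora70 (-0.36), or Gas5 (-0.30) and Snord47 (0.06). Rpl27a, host of Snora3, read 13.30, 13.22 and 13.26 in control a, b and c and 13.18, 13.16 and 13.23 in deleted a, b and c, a change of -0.06 ± 0.10 (SE), which became 0.08 under quantile normalization. Ipo7, host of Snora23, stood higher in all 3 deleted mice (9.33, 9.15 and 9.12) than in the controls (8.75, 8.75 and 8.89), at 0.41 ± 0.11 (SE, limma adjusted p = 0.104), while its snoRNA stood lower. Rps12, host of Snora33, was at -0.27 ± 0.10 (SE, limma adjusted p = 0.224). It passed with an intensity trend in the prior (0.0443) and was at -0.09 under quantile normalization. Across the 28 pairs, which share arrays and in part hosts, Pearson's r between host and snoRNA change was -0.06. Host rows were bright, with a median mean of 12.04 over the 25 measured where snoRNA rows had 6.59, and the part of intensity in this difference was not tested.

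**Figure D5:**
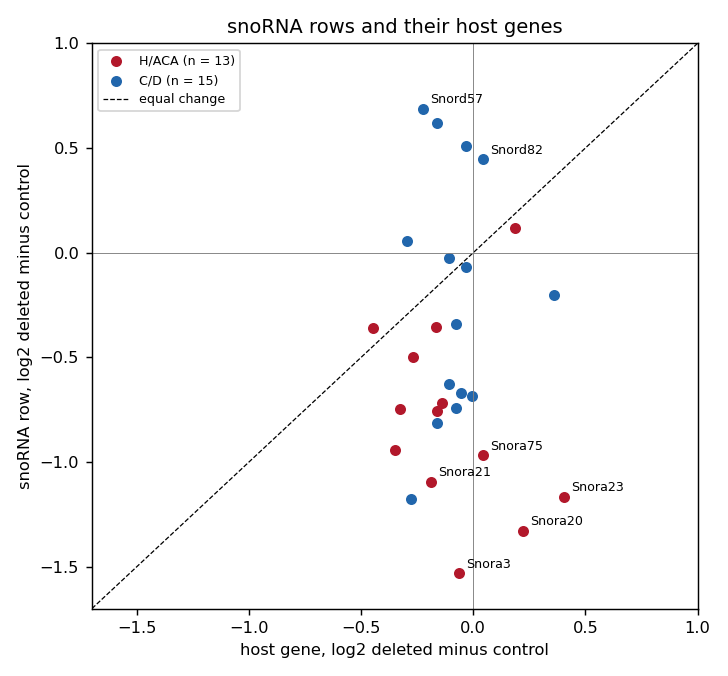
Each point is a snoRNA row with a measured host, placed by the host's log2 change (horizontal) and its own (vertical), with the dashed line where both are equal. Of 13 H/ACA rows 12 lie below the line, and of 15 C/D rows 9.

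Pairs of snoRNAs from 1 host did not always move alike. Of 10 hosts with 2 measured snoRNAs, 6 pairs had changes of 1 sign and 4 of opposite sign. The difference within a pair separated the genotypes in only 2 of the 10, Ncl and Snhg12, both given below. In the other pairs of opposite sign, in Rpl23a and Rps3a1, it overlapped (exact two-sided permutation p = 0.7 and 0.2). In Ncl, Snora75 was lower (-0.97 ± 0.27 SE, limma adjusted p = 0.121) and Snord82 higher (0.45). Snora75 passed without deleted a. Ncl itself was at 0.04 ± 0.11 (SE). The difference of Snora75 minus Snord82 was -1.76, -1.87 and -1.43 in control a, b and c and -2.77, -3.32 and -3.21 in deleted a, b and c, so the groups did not overlap (exact two-sided permutation p = 0.1, or 0.5 adjusted over the 10 pairs). In Snhg12, Snora16a was dim, with a mean of 4.99 over the 6 arrays. Its change was 0.22 against -1.20 for Snora44, so Snora44 made up most of their difference. Snora16a minus Snora44 was -4.01, -4.33 and -3.17 in control a, b and c. It was -2.57, -2.36 and -2.33 in deleted a, b and c (exact two-sided permutation p = 0.1, or 0.5 adjusted over the 10 pairs). With 3 mice per genotype no such test can go below 0.1. By contrast Snord95 (-0.71) and Snord96a (-0.69) in Rack1, and Snora73a (-0.12) and Snora73b (-0.17) in Snhg3, had close values, although Snord96a was at -0.36 without control a.

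No measured gene of the snoRNA-protein particles passed, and 1.43% of all genes did, so none among 31 is near that share. Of these 31 genes for core proteins, assembly and maturation 25 had a change above 0. Of all 19938 genes tested 11272 were above 0. The 4 H/ACA core proteins had a median of 0.05, with Dkc1 (dyskerin) at 0.21 ± 0.10 (SE, limma adjusted p = 0.364) and Nhp2 at 0.15 ± 0.11 (SE). The 4 measured C/D core proteins had a median of 0.03, with Nop58 at 0.26 ± 0.10 (SE, limma adjusted p = 0.255) and Snu13 at 0.19 ± 0.10 (SE). Of 9 assembly factors 8 were above 0 (median 0.14), led by Rpap3, a subunit of the R2TP chaperone complex, at 0.57 ± 0.12 (SE, limma adjusted p = 0.0536), with controls at 6.87 to 6.95 and deleted mice at 7.27 to 7.65. Rpap3 passed under 6 alternatives, namely both intensity filters (0.0429 and 0.0360), median centring (0.0458), cyclic loess (0.0482), array weights (0.0462) and without deleted a (0.0488). Shq1, an H/ACA assembly chaperone, was at 0.39 ± 0.17 (SE). Of 14 maturation and trafficking factors 13 were above 0 (median 0.26). Ncbp1, a subunit of the cap-binding complex, was at 0.57 ± 0.13 (SE, limma adjusted p = 0.0697), and Xrn2, the exonuclease that trims 5′ ends, was at 0.51 ± 0.12 (SE, limma adjusted p = 0.0747). Both passed among genes at or above the median intensity (0.0469 and 0.0492), and Ncbp1 also passed without control c (0.0440). None of 8 measured long noncoding host genes passed (median -0.03), with Gas5 at -0.30 ± 0.10 (SE, limma adjusted p = 0.201) and the imprinted Rian at 0.36 ± 0.16 (SE). Gas5 was at -0.12 under quantile normalization and at -0.57 with the mean of all its rows, and it passed with an intensity trend in the prior (0.0470). Without deleted b Rian was at 0.20.

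Rows of microRNA genes and the rows not taken as members were set beside the members. The 300 microRNA gene rows had a median of 0.00 with 149 below 0. Past the threshold 2 were lower (0.732% of all genes) and none higher (0.702% of all genes), which is near the share of all genes. Their median mean of 4.79 was lower than the 6.59 of snoRNA rows, so the groups are not matched in intensity. It was also below the 25th percentile of all genes, 5.36. At such low intensity the median of the microRNA rows cannot show whether other short RNAs changed. Of the 41 rows that name a snoRNA with other genes, 24 named copies of Snord116, a repeated C/D snoRNA known for its expression in neurons. Many of these 24 rows hold identical values, with 7 different ones in all. They read low, with means of 3.68 to 4.02, and all 24 lay slightly above 0 (0.17 to 0.28). The other 17 rows, some of which repeat each other's values, had a median of -0.46, with 5 of 8 H/ACA and 5 of 9 C/D rows below 0. None passed when every deposited row was tested (0.0366% of all rows passed). At an unadjusted p under 0.05 in that fit, 5 of the 17 were lower (7.26% of all rows) and 1 was higher (6.87% of all rows), a row of Snord68 and Rpl13 at 1.19.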

How the data were processed

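Total RNA of sorted cells from 6 mice was amplified and hybridised to 1-colour Affymetrix arrays. The deposited values are log2 intensities of probe sets, and the submitters' processing notes name RMA and Affymetrix Expression Console 1.1.2. How RMA was set and which build was annotated: not given in the sources used here. Over 35556 rows they ran from 2.17 to 14.6 and were used as deposited, without detection calls. Rows were named through GEO's platform annotation (21789 name 1 gene, 1621 several, 12146 unnamed here). For the 999 genes with several rows, the brightest was kept.

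The genotype contrast was fitted in R 4.3.3 with limma 3.58.1 (lmFit, eBayes, two-sided, Benjamini-Hochberg over 19938 genes). The fit was tested on simulated data with the spread of all genes, not that of the snoRNA rows. It called 14.0% of simulated log2 changes of 0.5 and 91.6% of those of 1. Classes were described by counts and medians, without set tests. Tables and figures used Python 3.11.15, pandas 2.3.3, SciPy 1.17.1 and matplotlib 3.10.9. The members and lists were chosen with earlier results of these data known. The text names Cebpa, rows past the threshold, the 4 smallest p per class and direction, the 4 brightest per class, precursor cleavage members, their hosts, and the listed genes that passed or had the 2 smallest p. Others were named after their values were seen. Alternatives were other priors, intensity filters, scalings, row choices, array weights, the sample letters as a block and leaving out each array.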

Additional observations from a re-analysis of the deposited data

How the results depend on the processing

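The medians of all snoRNA rows, H/ACA, C/D, bright and dim rows stayed below 0 under each alternative run. With only genes at or above the median intensity, 438 genes passed, and the median was -0.47 for the snoRNA rows left and -0.34 for the C/D rows left; no dim row was left. With every deposited row tested 13 rows passed, 0 of them snoRNA rows by limma. Of the 56 snoRNA rows 16 were lower at an unadjusted p under 0.05 in that fit, against 7.26% of all rows, and none was higher, against 6.87%. Cebpa (-1.71) also lost its call there, with an adjusted p of 0.0513. Leaving out single arrays gave 53 to 250 genes and 1 to 4 snoRNA rows past the threshold. Medians then ran from -0.45 to -0.28 for all rows, -0.71 to -0.40 for H/ACA, -0.36 to -0.15 for C/D, -0.55 to -0.34 for bright and -0.38 to -0.13 for dim rows. The replicate block on the letters a, b and c gave 8 snoRNA rows past the threshold and 274 genes. Same-letter deviations correlated at -0.01, -0.04 and 0.06 for a, b and c, not each highest for its own letter, so the letters were not taken as pairs. Signs near 0 flipped for Hspa8 (0.023), Rpl23a (0.13), Rpl27a (0.085) and Snord47 (-0.013) under quantile normalization, Snord47 (-0.017) under cyclic loess and Snord118 (0.0011) under median centring. Leaving out single arrays also turned Ncl (-0.040 to 0.116), Snord118 (-0.075 to 0.045), Snord47 (-0.169 to 0.241) and Snord49b (-0.420 to 0.132). The cause was not tested. No detection calls were used, so signal over background is known only from the intensities.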
